A study of Mus musculus with 3 samples.

Results

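The receptors for the colony-stimulating factors and for FLT3 ligand were followed across the immune cells of the healthy mouse kidney. They are 7 genes, Csf1r, Csf2ra, Csf2rb, Csf2rb2, Csf3r, Flt3 and Kit, taken by name from the 32886 gene columns of the deposited table. All 7 had a column, and all 7 were measured in every facility. The cells came from untreated ("untouched"), wild-type, male C57BL/6J mice of 10 weeks. Kidneys were perfused, cut by hand into the cortex and the medulla, the latter parted into an outer (OM) and an inner (IM) zone, and digested. The CD45+ (pan-leukocyte) cells were then sorted from each compartment for droplet sequencing. The 3 samples of the labels, 1 for each compartment, each held cells of 3 animal facilities, Aachen, Bonn and Hamburg, and facility served as the replicate, which gave 9 libraries. The number of mice behind a library is not given in the sources used here, and p-values therefore measure only the spread between these libraries.

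These receptors link the growth factors of the myeloid lineages to the cells that answer them. CSF1R, a receptor tyrosine kinase for CSF1 and IL-34, maintains tissue macrophages and many monocytes. The receptor for GM-CSF pairs an alpha chain, CSF2RA, with the common beta chain CSF2RB, which also serves the receptors for IL-3 and IL-5, and mice carry an additional beta chain, CSF2RB2, that serves IL-3. CSF3R is the G-CSF receptor of the neutrophil lineage. FLT3 and KIT are close relatives of CSF1R. FLT3 drives dendritic cell development, and KIT, the receptor for stem cell factor, is kept at the highest amounts by stem cells and mast cells and is also found on some innate lymphoid cells.

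Upstream sequences are shown for 3 members whose level in a cluster or group of clusters stood apart from the others in every facility compared: Csf3r (neutrophils), Flt3 (dendritic cells) and Csf2rb2 (pDC). They are the RefSeq promoters of GRCm38.p6, limited to bases before the first annotated transcript: chr4:126024409-126024549 on the plus strand for Csf3r, chr5:147400490-147400739 on the minus strand for Flt3 and chr15:78305722-78305971 on the minus strand for Csf2rb2. Each reads 5′ to 3′ in the direction of the gene, and capitals mark a match to the ETS core of PU.1.
Csf3r: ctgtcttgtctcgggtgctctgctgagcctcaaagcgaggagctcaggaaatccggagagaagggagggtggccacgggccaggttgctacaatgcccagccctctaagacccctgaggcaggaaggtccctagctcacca
Flt3: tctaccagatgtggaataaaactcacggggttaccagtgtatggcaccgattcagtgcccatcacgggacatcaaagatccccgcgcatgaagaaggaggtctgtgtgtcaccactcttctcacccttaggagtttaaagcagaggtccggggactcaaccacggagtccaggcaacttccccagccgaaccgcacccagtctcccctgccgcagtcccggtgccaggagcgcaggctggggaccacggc
Csf2rb2: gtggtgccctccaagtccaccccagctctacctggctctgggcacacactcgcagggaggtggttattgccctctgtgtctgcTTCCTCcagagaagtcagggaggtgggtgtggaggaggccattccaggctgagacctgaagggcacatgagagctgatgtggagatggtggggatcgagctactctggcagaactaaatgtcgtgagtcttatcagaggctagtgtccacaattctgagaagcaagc
Motifs of 4 factor families were searched on both strands. The ETS core of PU.1 was spelled GAGGAA and the GATA motif AGATAA. The RUNX motif was spelled TGTGGT and the C/EBP motif TTGCNNAA, and no spelling lies within another. The Csf2rb2 window held 1 match, to the ETS core on the strand opposite the gene, from base -167 to -162 before the start site. The windows of Csf3r and Flt3 held none, which says only that these letters are not in these bases. Of 27025 mouse promoters cut to the same 250 bases as Flt3 and Csf2rb2, 23.1% held the ETS core, 10.3% the GATA motif, 14.2% the RUNX motif and 9.55% the C/EBP motif. Cut to the 141 bases of the Csf3r window, 13.9%, 6.48%, 8.25% and 5.91% did.

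On the GRCm38 assembly with the GENCODE M21 annotation, Csf1r lay at chr18:61100598-61132149 on the plus strand, Csf2ra at chr19:61223957-61228429 on the minus strand and Csf3r at chr4:126024550-126044440 on the plus strand. Flt3 lay at chr5:147330741-147400489 on the minus strand and Kit at chr5:75574916-75656722 on the plus strand. The beta chains Csf2rb2, at chr15:78282507-78305721 on the minus strand, and Csf2rb, at chr15:78325752-78353847 on the plus strand, stood 20030 bases apart. They are near copies in part. Of the 4811 windows of 90 bases in the longest Csf2rb transcript, 394 (8.19%) also occurred in Csf2rb2, and none of the 411 windows in its last 500 bases did. Whether reads in the shared stretch were split between the pair is not given in the sources used here, so their separate values carry that uncertainty. Opposite-strand genes overlapped Csf1r (Hmgxb3, at 8.15 to 9.70 counts per 1000000, CPM, in the resident macrophage clusters) and Flt3 (Gm26597, at 0 in cDC1 and pDC and 0.898 ± 1.56 in cDC2, SD, n = 3).

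The table held 20266 cells in 23 clusters named by the authors, 7147 from Aachen, 6158 from Bonn and 6961 from Hamburg. Counts of unique molecular identifiers (UMIs, 1 for each captured transcript molecule) summed to between 2122809 and 15267126 in a library, and the median cell held 887 UMIs in Aachen, against 3290.5 in Bonn and 2943.9 in Hamburg. According to the study's list of datasets Aachen used an earlier droplet chemistry, so facility and chemistry cannot be told apart. Pairs of libraries of 1 facility shared 0 to 8 cell barcodes. Levels are given as CPM of the UMIs summed over a cluster in a facility, and as mean ± SD over facilities (n = 3 unless stated), and are compared between clusters of a gene, never between genes. Each of the clusters that matter here was highest for a listed marker: S100a8 reached 31478 ± 12536 CPM in Neutrophils, Xcr1 336 ± 70.0 in cDC1 and Cd209a 1497 ± 431 in cDC2. Siglech reached 2473 ± 626 in pDC (n = 2) and Gata3 720 ± 106 in ILC2. Other listed markers were highest elsewhere. Of the cDC1 list this held for Cadm1 (Macrophage_2, 260 ± 107), and of the ILC2 list for Il7r (T_cell_4, 1116 ± 737). Of the cDC2 list it held for Mgl2 (Macrophage_3, 1150 ± 157), Cd1d1 (B_cell_2, 47.3 ± 8.31) and Flt3 (cDC1). The authors made the clusters from the expression of these same cells, so that levels between clusters are a description without a test.

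**Figure D1:**
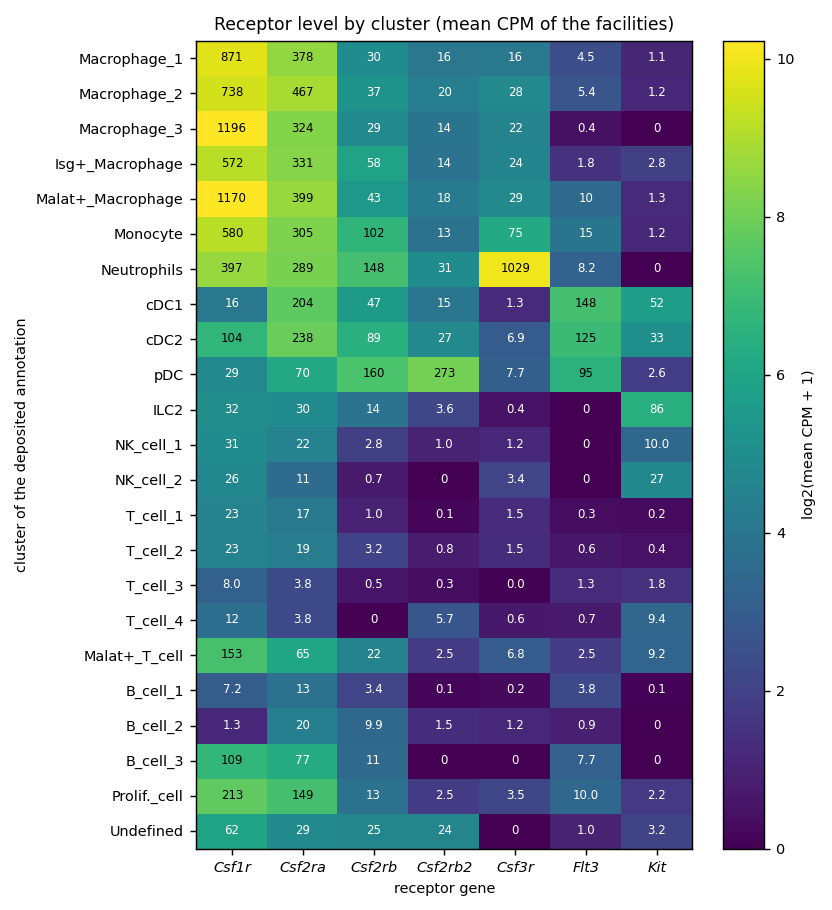
Level of each receptor (columns) in each of the 23 clusters (rows). Colour is log2(mean CPM + 1) and the number in a cell is the mean CPM of the facilities. Csf1r and Csf2ra ran through the macrophage, monocyte and neutrophil clusters. Of the Csf1r UMIs of Neutrophils, 87.8% lay in cells with 2 or more UMIs of resident macrophage markers. Csf3r peaked in Neutrophils (1029), Csf2rb2 in pDC (273) and Flt3 in cDC1 (148) and cDC2 (125). Kit peaked in ILC2 (86.2), where 5 cells rich in mast cell or basophil markers held 34.0% of its UMIs.

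Csf1r, the macrophage growth factor receptor, was highest in Macrophage_3, at 647 CPM in Aachen, 1661 in Bonn and 1281 in Hamburg. Macrophage_1 held 456, 1281 and 876 CPM in the same order, and Macrophage_2 436, 1021 and 758. The facility ranges of these clusters overlapped, because every macrophage cluster was lowest in Aachen. Within each facility Macrophage_3 stood above Macrophage_1, by 0.48 ± 0.09 on the log2 scale, and above Macrophage_2, by 0.68 ± 0.10, while it exceeded Malat+_Macrophage (1170 ± 657) in only 2 of 3 facilities.

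Beyond macrophages, Csf1r stood at 312, 702 and 727 CPM in Monocyte and at 284, 475 and 432 in Neutrophils (Aachen, Bonn, Hamburg). Monocytes were above the neutrophil cluster in all 3 facilities, by a log2 ratio of 0.48 ± 0.32. The dendritic cells formed a further step down from the monocytes. In cDC2 the values were 45.0, 143 and 124 CPM, lower than in Monocyte by 2.54 ± 0.25 log2 units in every facility, and cDC1 held 5.82, 23.7 and 18.6, lower than cDC2 by 2.76 ± 0.18.

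Lymphocytes should lack this receptor and set its background. T cells held Csf1r at 52.6 CPM in Aachen, 3.85 in Bonn and 3.83 in Hamburg, which was 10.6%, 0.309% and 0.440% of the resident macrophage level of the same facility. A Csf1r UMI was seen in 38.3% of resident macrophages in Aachen, 96.7% in Bonn and 88.3% in Hamburg, against 4.42%, 0.685% and 2.15% of T cells. Median depths were 889, 4499 and 3297 UMIs in the macrophages and 973, 3274 and 3395 in the T cells. After each cell was thinned to 500 UMIs, with the 814 shallower cells left out, the macrophage shares were 21.8%, 47.3% and 33.5% and the T cell shares 1.80%, 0.125% and 0.143%. Malat+_T_cell, at up to 346 CPM of Csf1r, also carried the resident macrophage marker list at 4.43 to 96.6 UMIs per 10000, and the part of that in its Csf1r was not tested.

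The neutrophil signal of Csf1r lay mainly in cells that also carried macrophage or monocyte markers. The resident macrophage marker list came to 14.2, 77.1 and 53.2 UMIs per 10000 in the cluster (Aachen, Bonn, Hamburg), against 200 to 247 in resident macrophages and 16.5 to 30.3 in Monocyte, and the monocyte list (Ly6c2, Plac8, Ccr2, Chil3, Ace, Treml4) to 3.55, 5.28 and 6.86. Of the 273 cells, 111 held 2 or more UMIs of the macrophage list. These deeper cells held 66.5% of the cluster's UMIs and 87.8% of its Csf1r UMIs, at 578 CPM of Csf1r and 558 of Csf3r. In the 121 cells without a UMI of that list, which held 21.4% of the UMIs, Csf1r was at 117 CPM and Csf3r at 1791, and their median depth was 1702 UMIs against 5016. By facility Csf1r in those cells stood at 293 CPM in Aachen (3 UMIs in 21 cells), 83.7 in Bonn and 118 in Hamburg. In Bonn and Hamburg these levels were below that of cDC2, and in Aachen above it. The 73 cells with 2 or more UMIs of the monocyte list, 66 of them from Hamburg, held 47.2% of the cluster's UMIs and 58.6% of its Csf1r UMIs. This split of the cluster was added after the data were seen, and the part of the macrophage and monocyte markers in the neutrophil level was not tested.

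**Figure D2:**
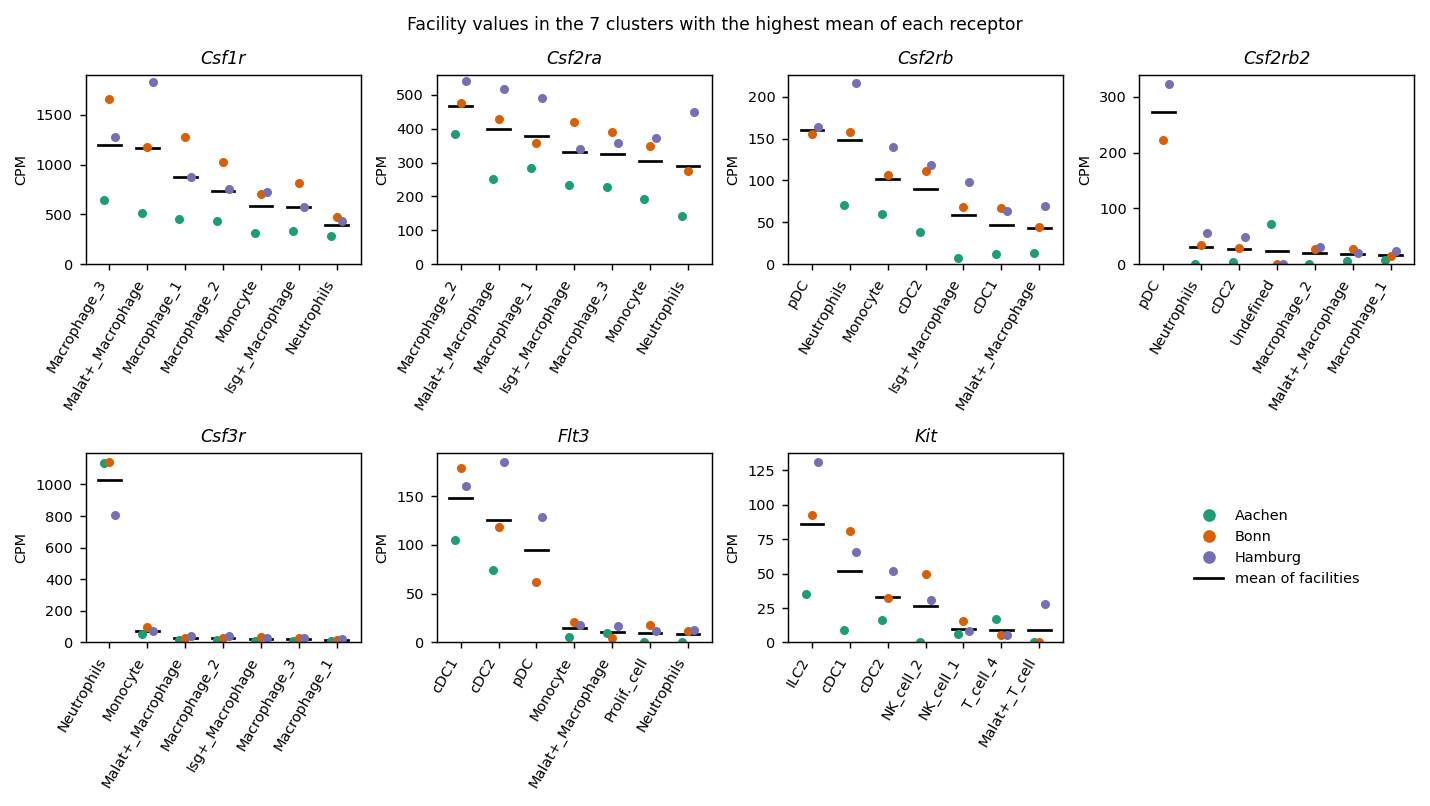
CPM of each receptor in the 7 clusters with its highest mean. Each point is 1 facility and the black line their mean; pDC has 2 points because Aachen held 9 such cells. The values of Aachen lie lowest for Csf1r in all 7 clusters shown, and Csf3r separates Neutrophils (809 to 1143) from Monocyte (53.9 to 98.0).

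The compartments were compared in resident macrophages, the 5367 cells of Macrophage_1, Macrophage_2, Macrophage_3 and Isg+_Macrophage, to ask whether receptor levels differ along the cortex to medulla axis. In Aachen Csf1r measured 407 CPM in cortex, 573 in OM and 385 in IM. Bonn gave 1000, 1430 and 1391, and Hamburg 697, 974 and 865. OM exceeded cortex in all 3 facilities and IM in 2 of 3, but the ranges of the compartments overlapped. Fitted with facility as a block, Csf1r was 0.39 ± 0.14 (SE) log2 units higher in medulla (the mean of OM and IM) than in cortex, with an adjusted p of 0.265 in edgeR's quasi-likelihood test with Benjamini-Hochberg adjustment over 8687 genes. The difference of OM from cortex was 0.50 ± 0.16 (adjusted p = 0.194 by the same edgeR test) and that of IM 0.27 ± 0.16 (adjusted p = 0.846). By facility, medulla minus cortex came to 0.22 in Aachen, 0.54 in Bonn and 0.35 in Hamburg.

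None of the 5 receptors that passed the low-count filter in resident macrophages passed the threshold of 0.05 between medulla and cortex, where 1.24% of all genes tested did. Flt3 (4.03 ± 3.11 CPM) and Kit (1.16 ± 1.38) did not pass that filter there. Csf1r alone had an unadjusted p under 0.05 (0.0137), and DESeq2, which gave an adjusted p for only 2 of the receptors, Csf1r (0.232) and Csf2ra (0.928), called neither. Against cortex the share of all genes called was 0.852% for OM and 0.196% for IM, again with 0 of the 5 receptors. OM against IM called no gene at all (0% by edgeR, with 267 genes at an unadjusted p under 0.05), and Csf1r differed there by 0.24 ± 0.16. A p that misses the threshold does not show that the compartments were equal.

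The make-up of the class moved with the compartment. Macrophage_3, the cluster with the most Csf1r, made up 0% of resident macrophages in the cortex of Aachen and Hamburg and 7.05% in that of Bonn. In OM its share was 44.7%, 42.9% and 23.0%, and in IM 1.17%, 43.1% and 15.4% (Aachen, Bonn, Hamburg). Without Macrophage_3 the medullary difference of Csf1r was 0.27 ± 0.14 log2 units. Inside Macrophage_1 it was 0.21 ± 0.15 (adjusted p = 0.863, edgeR), inside Macrophage_2 0.13 ± 0.13 (adjusted p = 0.999) and in Malat+_Macrophage 0.32 ± 0.28 (adjusted p = 0.996). Over 8 alternatives each, these ranged from 0.11 to 0.61, from 0.08 to 0.29 and from 0.15 to 0.36. Macrophage_3 itself could not be fitted, since only Bonn held it in cortex, with 38 cells at 1330 CPM against 1690 in OM and 1684 in IM.

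Markers of other cells also differed between the macrophage libraries. The B cell list ranged from 1.04 to 9.44 UMIs per 10000, the T cell list from 0.444 to 2.74 and the monocyte list from 0.440 to 6.23, each highest in the cortex of Bonn. When the 1217 resident macrophages with 2 or more T or B cell marker UMIs were left out, Csf1r differed between medulla and cortex by 0.32 ± 0.15. In cortex this left 212 of 539 cells in Bonn and 138 of 232 in Hamburg, against 477 of 496 in Aachen. Macrophages of Aachen were also the shallowest, and the part of depth in this cutoff was not tested.

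**Figure D3:**
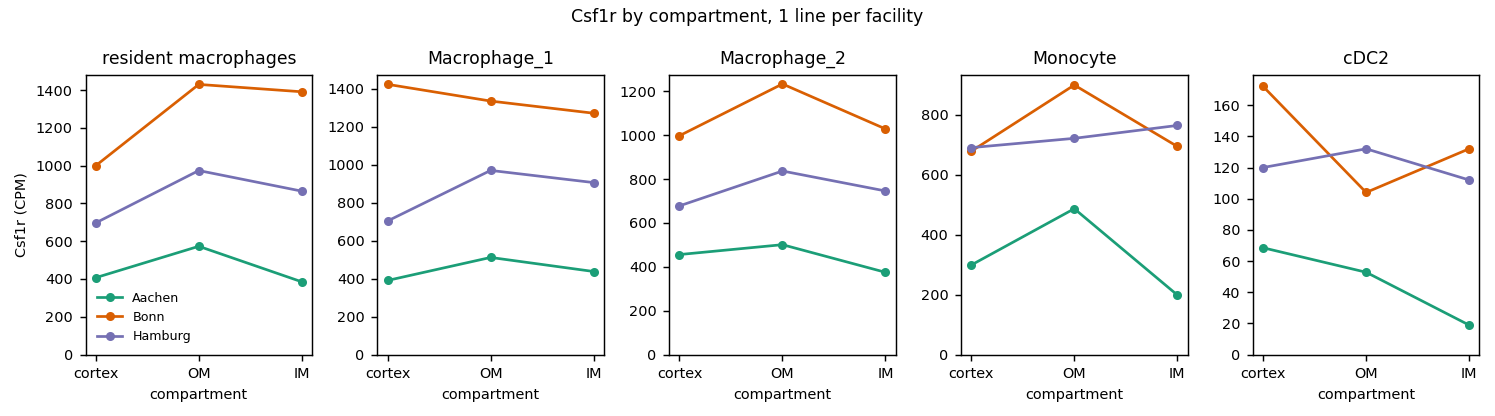
Csf1r in CPM (y axis, from 0) by compartment in resident macrophages, Macrophage_1, Macrophage_2, Monocyte and cDC2, with 1 line per facility and only libraries of 10 cells or more. In resident macrophages every line rises from cortex to OM, and the distance between facilities (407 to 1000 in cortex) is wider than that rise.

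Monocytes of Aachen held Csf1r at 299, 487 and 199 CPM (cortex, OM, IM), those of Bonn at 679, 900 and 695 and those of Hamburg at 691, 722 and 765. The medullary difference was 0.14 ± 0.16 log2 units. None of the 5 receptors tested in Monocyte passed, against 0.332% of 6029 genes, and none had an unadjusted p under 0.05. In cDC2 Csf1r went the other way in Aachen, from 68.5 in cortex to 52.8 in OM and 18.9 in IM, and in Bonn from 172 to 104 and 132, while Hamburg gave 120, 132 and 112. Only 12 of the 153 cDC2 of Aachen held a Csf1r UMI. The medullary difference of Csf1r in cDC2 was -0.27 ± 0.21, from -0.48 to -0.06 over 7 alternatives. By facility it came to -0.86 in Aachen, -0.49 in Bonn and 0.05 in Hamburg. Of the receptors, 0 of 6 passed in cDC2, against 0.304% of 4935 genes.

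Whether the medullary difference of Csf1r itself differed between cell types was tested as an interaction. It was lower in cDC2 than in resident macrophages by a log2 difference of -0.73 ± 0.34 (adjusted p = 1, edgeR), where 0.221% of 9064 genes passed. With a term for each class in each facility, an alternative added after the data were seen, it was -0.74 ± 0.22 (adjusted p = 0.0847, edgeR). Between Monocyte and resident macrophages the same difference was -0.26 ± 0.35 (adjusted p = 1, edgeR), where 0.241% of 9126 genes passed. No receptor passed in either, and only Csf1r in cDC2 had an unadjusted p under 0.05.

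Csf2ra, the alpha chain that binds GM-CSF, was shared widely among myeloid clusters. Its highest level was in Macrophage_2, at 385 to 540 CPM (467 ± 77.9), followed by Malat+_Macrophage at 399 ± 135 and Macrophage_1 at 378 ± 104. Macrophage_2 was above Macrophage_1 in all 3 facilities, by 0.33 ± 0.16 log2 units, and above Macrophage_3 by 0.55 ± 0.24, the reverse of their order for Csf1r. Neutrophils held 289 ± 154, cDC2 238 ± 92.3, cDC1 204 ± 53.8 and pDC 70.1 ± 10.4 (n = 2), with overlapping ranges except for pDC. T cells held 28.0, 9.55 and 7.19 CPM, or 9.40%, 2.29% and 1.53% of the resident macrophage level.

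In resident macrophages Csf2ra measured 366, 245 and 363 CPM in Aachen (cortex, OM, IM), 480, 486 and 351 in Bonn and 479, 445 and 502 in Hamburg. No compartment was highest in all 3 facilities. The medullary difference was -0.16 ± 0.14 log2 units (adjusted p = 0.796, edgeR). It lay between -0.20 and 0.16 in the 6 single clusters in which the gene could be tested, with SEs of 0.14 to 0.24.

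Csf2rb, the beta chain common to GM-CSF, IL-3 and IL-5 signalling, had another order. Neutrophils held 71.0, 158 and 216 CPM, Monocyte 59.9, 106 and 140 and cDC2 38.6, 111 and 118 (Aachen, Bonn, Hamburg), and pDC held 155 in Bonn and 164 in Hamburg. Neutrophils were above Monocyte in every facility, by 0.48 ± 0.21 log2 units, and above cDC2 by 0.75 ± 0.21, though the ranges over facilities overlapped. Monocyte was above Macrophage_1 (30.1 ± 14.1) by 1.81 ± 0.43, so that the alpha and beta chains of the GM-CSF receptor did not have the same order: macrophages led for Csf2ra and stood among the lower myeloid clusters for Csf2rb. T cells held 1.56 ± 0.613 CPM and B cells 4.39 ± 0.567.

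By compartment Csf2rb in resident macrophages was 18.5, 20.1 and 13.3 CPM in Aachen (cortex, OM, IM), 61.4, 42.8 and 38.2 in Bonn and 37.2, 38.9 and 41.9 in Hamburg. Only Bonn was lower than cortex in both medullary compartments. The medullary difference was -0.27 ± 0.18 log2 units (adjusted p = 0.682, edgeR), and 0.04 ± 0.27 without Bonn.

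Csf2rb2, the beta chain specific to IL-3, marked a small cluster. In pDC it measured 222 CPM in Bonn (48 cells) and 324 in Hamburg (42 cells), and the next cluster, Neutrophils, reached no more than 56.6 in any facility. Aachen held 9 pDC with a summed level of 96.1 CPM and was left out of the mean of 273 ± 72.3 (n = 2). Over all 3 facilities, pDC were 0.503 ± 0.338% of all cells and held 20.4 ± 7.25% of all Csf2rb2 UMIs (12.0% in Aachen). Resident macrophages, at lower levels but in larger number, held 38.1 ± 13.4%. A UMI was seen in 39 of 48 pDC in Bonn and 34 of 42 in Hamburg, where 2 of 1605 and 3 of 2092 T cells had one. Median depths were 7544 and 7394 UMIs in the pDC and 3274 and 3395 in the T cells. After thinning, the pDC shares were 6.25% and 19.0%, and both T cell shares were 0%. The cluster also carried the monocyte list markers Ly6c2 (2656 ± 443 CPM) and Plac8 (1849 ± 428), both of which plasmacytoid dendritic cells are known to express.

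In resident macrophages Csf2rb2 was close to 0 in OM and IM of Aachen (0.557 and 1.47 CPM, against 13.2 in cortex). Bonn gave 25.4, 15.4 and 17.1 CPM and Hamburg 22.9, 29.0 and 24.1 (cortex, OM, IM). Its medullary difference was -0.54 ± 0.34 log2 units (adjusted p = 0.669, edgeR), with Hamburg showing no fall.

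Csf3r, the G-CSF receptor, was held almost wholly apart by neutrophils. It measured 1136 CPM in Aachen, 1143 in Bonn and 809 in Hamburg, against 53.9, 98.0 and 74.3 in Monocyte, and no range overlapped. The log2 ratio of Neutrophils to Monocyte was 3.80 ± 0.52. Monocytes in turn stood above every other cluster, with the next mean at 28.6 ± 14.6 (Malat+_Macrophage) and Macrophage_1 lower by 2.27 ± 0.34 log2 units. The neutrophil marker list included Csf3r itself. Of its other members, S100a8, S100a9, Retnlg (3358 ± 297 CPM) and Cxcr2 (375 ± 132) were also high in these cells. Ly6g reached only 8.81 ± 15.3 CPM there, which was still its highest cluster mean.

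A Csf3r UMI was seen in 52.0%, 94.1% and 89.3% of neutrophils (Aachen, Bonn, Hamburg; 25, 51 and 197 cells) and in 0.130%, 0.249% and 0.382% of T cells. Median depths were 485, 1920 and 2740 UMIs in the neutrophils and 973, 3274 and 3395 in the T cells. Thinned to 500 UMIs, the neutrophil shares were 41.7%, 51.0% and 38.1%. The share of Aachen then rests on 5 of 12 cells. The T cell shares were then 0.0720%, 0.0623% and 0.0478%. Neutrophils were 1.34 ± 1.32% of the cells and held 41.5 ± 23.5% of the Csf3r UMIs, and resident macrophages, at low levels but in large number, held 30.3 ± 18.3%.

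Resident macrophages held Csf3r at 6.60, 8.92 and 16.2 CPM in Aachen (cortex, OM, IM), at 27.5, 39.5 and 21.1 in Bonn and at 23.3, 29.0 and 27.5 in Hamburg. OM was above cortex in all 3 facilities, while the medullary difference was 0.19 ± 0.23 log2 units (adjusted p = 0.891, edgeR) and turned to -0.06 ± 0.30 without the cells bearing lymphocyte markers. In Monocyte the difference was -0.02 ± 0.25. Neutrophil libraries held 1 to 94 cells, and no test was run on them. Those of 10 cells or more measured 742 CPM in cortex and 1516 in IM at Bonn, 662, 809 and 1018 in cortex, OM and IM at Hamburg and 838 in IM at Aachen.

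Flt3, the receptor that drives dendritic cell development, divided the dendritic clusters from all others. In cDC1 it measured 105, 179 and 160 CPM (Aachen, Bonn, Hamburg), in cDC2 73.9, 118 and 185 and in pDC 61.9 (Bonn) and 129 (Hamburg). The highest value of Monocyte, the next cluster, was 20.8. Flt3 counts among the cDC2 markers used here, and cDC1 stood above Monocyte by 3.48 ± 0.56 log2 units. The dendritic clusters themselves overlapped, with cDC1 above cDC2 in 2 of 3 facilities. No Flt3 UMI was found in 424 ILC2 or in 1133 NK cells, which allows a share of cells with a UMI of up to 0.708% and 0.265%.

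A Flt3 UMI was seen in 31.5%, 78.9% and 65.9% of cDC1, and thinning brought these shares to 9.89%, 7.89% and 10.4%. In cDC2 they were 12.4%, 56.3% and 49.8%, and 4.73%, 5.88% and 10.8% after thinning. In T cells they were 0%, 0.125% and 0.574%, and 0%, 0% and 0.0956% after thinning. Median depth was 3469, 11738 and 9188 UMIs in cDC1, 1705, 8239 and 4880 in cDC2 and 973, 3274 and 3395 in T cells. cDC1 and cDC2 together supplied most Flt3 UMIs, 36.6 ± 9.86% and 41.0 ± 9.19%, from 1.49 ± 0.393% and 3.33 ± 1.03% of the cells.

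No compartment difference of Flt3 passed the threshold. In cDC1 it measured 77.4, 133 and 143 CPM in Aachen (cortex, OM, IM), 161, 153 and 257 in Bonn and 184, 151 and 119 in Hamburg. By facility, medulla minus cortex came to 0.71 log2 units in Aachen, 0.70 in Bonn and -0.47 in Hamburg, so that the facilities ran in opposite directions. The fitted medullary difference in cDC1 was 0.13 ± 0.25 log2 units (-0.01 without Aachen, -0.13 without Bonn and 0.68 without Hamburg), fitted without the OM library of Bonn, which held 7 of these cells. cDC2 of Aachen held 82.3, 90.5 and 47.3, those of Bonn 116, 107 and 122 and those of Hamburg 167, 188 and 190, a medullary difference of 0.10 ± 0.20. None of the 4 receptors tested in cDC1 passed the threshold, where 0.0634% of 3154 genes did, and neither cDC cluster held a receptor with an unadjusted p under 0.05.

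Kit, the stem cell factor receptor, was found in ILC2, dendritic cells and NK cells rather than in macrophages or neutrophils. ILC2 held 35.0, 92.1 and 131 CPM (Aachen, Bonn, Hamburg), cDC1 8.72, 80.7 and 65.4 and cDC2 16.1, 31.9 and 51.5. Over all its cells ILC2 stood above cDC2 in every facility by 1.33 ± 0.20 log2 units and above cDC1 by 1.07 ± 0.91. NK_cell_2 held 0, 49.4 and 30.7 CPM. Not a single Kit UMI was found in 1418 Macrophage_3 cells or in 273 neutrophils, which allows shares of up to 0.212% and 1.10%.

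Within ILC2, part of the Kit signal lay in a few cells with markers of mast cells, for which KIT is a defining receptor, or of basophils. The list of those markers came to 0.799 to 8.26 UMIs per 10000 in the cluster, with Cpa3, a mast cell protease, at 309 ± 211 CPM, Mcpt8 at 61.5 ± 107 and Mcpt4 at 0, while Cma1, also on the list, was higher in NK_cell_1 (293 ± 122) than in ILC2 (79.0 ± 76.5). Of 424 ILC2 cells, 5 held 10 or more UMIs of the list, and these 5, with 2.84% of all UMIs, carried 34.0% of the cluster's Kit UMIs. They came from Bonn (1 cell) and Hamburg (4 cells), and Aachen held none. The 385 cells with no UMI of the list held 50.6% of the Kit UMIs, and 38 of the 52 cells with a Kit UMI were among them. In the 5 cells with 10 or more UMIs of the list the ILC2 markers were at 3.93 UMIs per 10000, against 36.7 in the cells with no UMI of the list. In the cells with none, an alternative added after the data were seen, Kit was 31.5, 40.9 and 79.2 CPM. These levels were above those of cDC2 in every facility, but in Bonn below that of cDC1 (80.7 CPM). Of these ILC2 cells, 3.53%, 10.1% and 17.1% held a Kit UMI. Only 1 of 4358 B cells, the reference lacking the gene, did so. Median depth over all ILC2 was 959, 3935 and 3324 UMIs and over B cells 733, 2765 and 2452.

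By compartment Kit in ILC2 measured 15.3, 61.2 and 18.9 CPM in Aachen (cortex, OM, IM), 134, 0 and 50.6 in Bonn and 176, 127 and 74.5 in Hamburg. Both medullary values were below cortex in Bonn and Hamburg and above it in Aachen. All ILC2 of Aachen together held only 7 Kit UMIs, and the OM value of Bonn rests on 12 cells. The difference was -0.88 ± 0.41 log2 units (adjusted p = 0.757, edgeR), where 0.359% of 1669 genes passed. The mast cell and basophil list in ILC2 came to 0.305, 0.735 and 1.51 UMIs per 10000 in Aachen (cortex, OM, IM), 8.37, 0 and 1.14 in Bonn and 18.2, 3.02 and 0.490 in Hamburg. It was thus lower than in cortex where Kit was, in Bonn and Hamburg, and higher where Kit was, in Aachen, and its part in the difference was not tested. Kit in cDC2 was 13.7, 15.1 and 18.9 CPM for Aachen, 28.7, 39.1 and 32.2 for Bonn and 30.4, 54.9 and 58.3 for Hamburg. Both medullary values lay above the cortical value in all 3 facilities. In Aachen, however, cDC2 held fewer Kit UMIs than the 7 of ILC2, so its order over compartments rests on very few molecules. The medullary difference of Kit in cDC2, 0.54 ± 0.31, missed the threshold (adjusted p = 0.995, edgeR), and in cDC1 it was 0.36 ± 0.32.

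**Figure D4:**
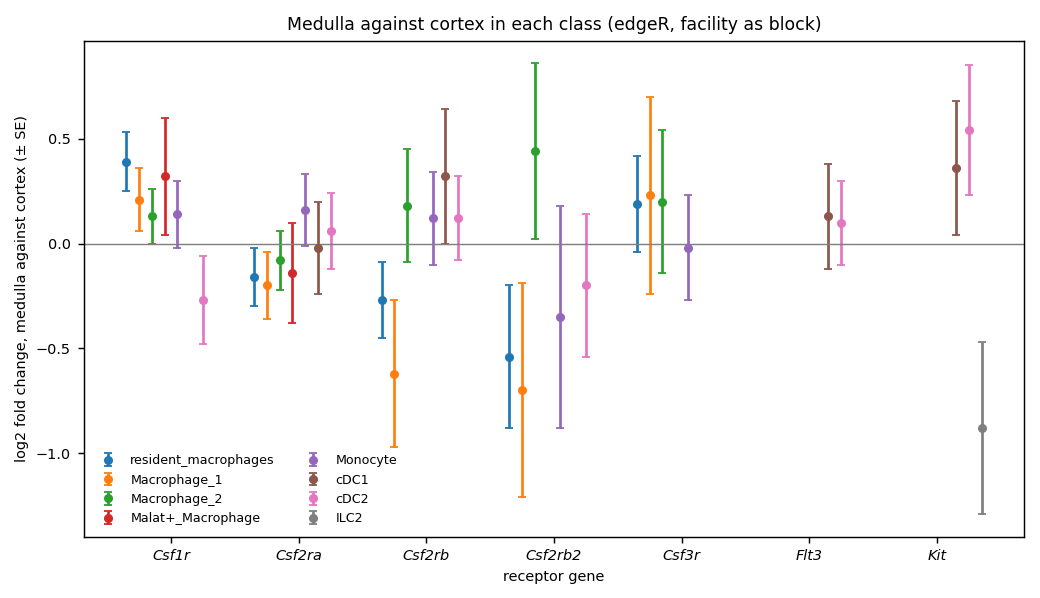
Log2 fold change of each receptor, medulla against cortex, with SE bars, in the classes where it could be tested by edgeR with facility as block. No point passed an adjusted p of 0.05. Csf1r lies above 0 in the macrophage classes and monocytes (0.13 to 0.39) and below it in cDC2 (-0.27), and Kit below 0 in ILC2 (-0.88) and above it in cDC1 (0.36) and cDC2 (0.54).

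The other single clusters gave no receptor either. Of 5 tested in Macrophage_1, 0 passed, where 0.516% of all 6978 genes did, and of 5 in Macrophage_2, 0 passed, where 0.0200% of 4989 did. In Malat+_Macrophage 2 could be tested and 0 passed, where 0.0587% of 3407 genes did. The smallest unadjusted p of a receptor in these clusters was 0.083, for Csf2rb in Macrophage_1 (-0.62 ± 0.35 log2 units). DESeq2 called no receptor in any of these classes.

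Taken over all cells of a library, the level of Csf1r had the same order over compartments as the share of resident macrophages in each facility. Csf1r in the whole of a library was 176, 392 and 155 CPM in Aachen (cortex, OM, IM), 278, 587 and 676 in Bonn and 157, 345 and 228 in Hamburg. Resident macrophages made up 35.6%, 53.1% and 28.7% of the cells of Aachen, 14.7%, 27.1% and 34.3% of those of Bonn and 9.47%, 19.7% and 12.6% of those of Hamburg. Csf2ra did not keep that order in Aachen (175, 170 and 139 CPM) or Bonn (160, 255 and 216). In such totals, more cells of a type and more RNA per cell cannot be told apart. Resident macrophages were 26.2 ± 14.8% of all cells and held 69.7 ± 14.9% of the Csf1r UMIs and 60.1 ± 15.3% of those of Csf2ra, but 35.6 ± 19.5% of those of Csf2rb. Kit was the most divided, with 27.0 ± 3.38% of its UMIs in cDC2, 24.5 ± 8.99% in cDC1, 24.3 ± 10.7% in ILC2 and 11.1 ± 5.74% in NK cells.

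**Figure D5:**
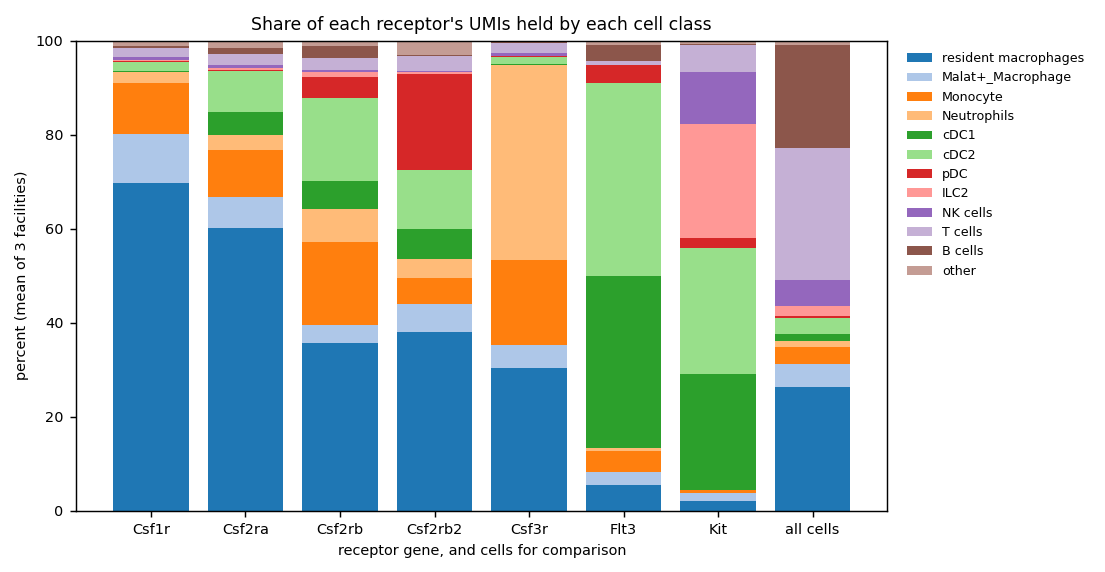
Percent of each receptor's UMIs held by each cell class (stacked bars, mean of 3 facilities), with the make-up of all cells as the last bar. Resident macrophages hold 69.7% of the Csf1r UMIs from 26.2% of the cells, Neutrophils 41.5% of the Csf3r UMIs from 1.34%, and pDC 20.4% of the Csf2rb2 UMIs from 0.503%.

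The ligands of these receptors differed widely in level, and 4 of the 8 reached no more than 8.09 CPM in any cluster mean. Csf2, the gene of GM-CSF, was highest in ILC2 at 442 ± 487 CPM, and next in T_cell_4 at 89.8 ± 54.2. Csf1 was highest in Neutrophils (135 ± 44.1) and ILC2 (131 ± 121), Flt3l in T_cell_1 (mean 84.1) and Kitl in Malat+_Macrophage (33.0 ± 39.6). Il3 had no UMI in any cluster, Csf3 reached 0.611 ± 1.06 CPM in Monocyte, Il34 0.974 ± 1.69 in Undefined and Il5 8.09 ± 14.0 in ILC2. Stromal and epithelial sources of these factors were not sorted. Of the 8 ligands, 3 could be tested in resident macrophages and 0 passed between medulla and cortex by edgeR (1 at an unadjusted p under 0.05), with a median difference of 0.35 log2 units against 0.01 over all genes. Kitl, which encodes the ligand of KIT, was at 1.05 ± 0.33 (adjusted p = 0.186, edgeR).

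Of the partner chains Il3ra and Il5ra, which bind IL-3 and IL-5, only Il3ra could be tested in resident macrophages, and its difference was -0.16 ± 0.20 log2 units. It was highest in Isg+_Macrophage (51.7 ± 7.85 CPM), and Il5ra in B_cell_3 (40.3 ± 34.3, n = 2). Of 16 signal transduction genes, 14 were tested in resident macrophages and 0 passed by edgeR, 3 at an unadjusted p under 0.05, nor did any of the 9 to which DESeq2 gave an adjusted p, and their median difference was -0.08. Among them Socs3, a feedback inhibitor of cytokine signalling, was at 1.49 ± 0.52 (adjusted p = 0.247, edgeR). Within Macrophage_1, Socs3 rose in medulla by 1.36 ± 0.28 (adjusted p = 0.0122, edgeR), the only one of the 13 listed signal transduction genes tested there to pass. Its values in Macrophage_1 were 77.7, 271 and 109 CPM in Aachen (cortex, OM, IM), 69.6, 142 and 476 in Bonn and 250, 465 and 563 in Hamburg. Every medullary value thus lay above the cortical value of its facility, and the compartments overlapped between facilities. The cortical value of Bonn rests on 7 UMIs in 24 cells. DESeq2 (1.43) and the fit without Hamburg (1.74) did not call Socs3 in Macrophage_1. It was at -0.02 ± 0.32 in Macrophage_2 and -0.07 ± 0.21 in Monocyte. In Malat+_Macrophage it was at 1.49 ± 0.49, in cDC1 at 1.22 ± 0.72 and in cDC2 at 0.60 ± 0.23, and it passed in none of these clusters.

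Of 14 lineage transcription factors, 10 were tested in resident macrophages and 1, Maf, rose from cortex to medulla, with a median of 0.05 log2 units over the 10. Maf encodes a transcription factor of mature macrophages. It measured 99.0, 296 and 121 CPM in Aachen (cortex, OM, IM), 189, 420 and 304 in Bonn and 104, 175 and 141 in Hamburg, with OM and IM above cortex at each facility. The medullary difference was 0.86 ± 0.18 log2 units (adjusted p = 0.0295, edgeR), and in OM alone 1.19 ± 0.20 (adjusted p = 0.0176, edgeR). Like Csf1r, Maf was high in Macrophage_3 (372 ± 73.9 CPM), and without that cluster its difference was 0.58 ± 0.15 and no longer passed. The call was also lost without Bonn (0.77) or Hamburg (0.98), without the cortex of Aachen or of Bonn (0.78 each), without OM of Bonn (0.91), without IM of Hamburg (0.82) and without the cortex of Hamburg. For OM alone it was lost without Hamburg (1.40), the cortex (1.10) or OM (0.89) of Aachen, OM of Bonn (1.28) or Macrophage_3 (0.81). Both calls were also lost after thinning (0.83 for medulla, 1.18 for OM) and with no replicate block (0.88 and 1.24).

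Genes with the most similar pattern to each receptor were found by Pearson correlation of log2(CPM + 1) over the means of 21 clusters, among 6373 genes that reached 50 CPM in a cluster. The clusters share libraries, so the values are a description. Left out were pDC and B_cell_3, which held too few cells in Aachen. Csf2rb and Csf2rb2 had their highest mean in pDC, so their values here do not cover that cluster. Genes close to Csf1r included Fcgr3 (0.962) and Clec4a3 (0.961), and Csf2ra was closest to P2ry6 (0.973), Cd68 (0.971) and Cd300c2 (0.967). Csf2rb was closest to Tctex1d2 (0.925), Ifitm3 (0.911) and Csf2ra (0.899), and Csf2rb2 to Rbm47 (0.897), Ralb (0.895) and Basp1 (0.894). Csf3r was closest to Rnf149 (0.952), Pilrb2 (0.940) and Hcar2 (0.919), Flt3 to Lmo1 (0.892), Tnni2 (0.882) and Gm2a (0.819), and Kit, with the lowest values, to Plcb4 (0.769), Isyna1 (0.750) and Chn2 (0.709). Among the receptors themselves, the chains of the GM-CSF receptor, Csf2ra and Csf2rb, were closest (0.90), then Csf1r and Csf2ra (0.85), while Kit lay between -0.33 and 0.22 with the other 6.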

How the data were processed

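The deposited table held UMI counts per cell and gene with the facility, compartment and cluster of each cell. According to the methods, the authors used Cell Ranger and mm10, then Seurat, kept cells with 200 to 4000 genes, removed those above 20% mitochondrial reads, integrated the datasets and named clusters with SingleR and known markers; doublet treatment is not given in the sources used here. The deposited counts were whole numbers in Aachen and Bonn. In Hamburg only 0.118% of nonzero values were exactly whole, and these deposited estimated counts were rounded after summing. Cells and clusters were used as deposited, with no further filter. Of columns with per-sample values, 0 were left unmapped.

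Counts were summed per cluster or class, facility and compartment (libraries of 10 cells or more) and tested with edgeR 4.0.16 in R 4.3.3 (quasi-likelihood test, facility as block, filterByExpr, TMM, Benjamini-Hochberg over all genes tested, threshold 0.05). The printed SE of a log2 fold change is its size divided by the square root of F. DESeq2 1.42.0 was an alternative. CPM and shares were computed with Python 3.11.15, pandas 2.3.3 and numpy 2.4.6. Shares and limits cover counting error only, and a limit after a count of 0 is 3 cells of the total. Thinning drew 500 UMIs per cell. The edgeR fit was tested on simulated data. The labels give each compartment sample a single replicate, and the block is the facility column of the table.

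All 7 receptors entered every comparison, and those past the low-count filter were tested. Where a class gave no call, not each of them is named. Of the lists of ligands, partner chains, signal transduction genes and lineage factors, the genes past the threshold in resident macrophages are named, and for each receptor the genes among the 3 closest in pattern (some results are not reported here); Socs3, Kitl and the highest clusters of listed genes were picked after their values were seen. Members, lists and tests were chosen with earlier results of these data known.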

Additional observations from a re-analysis of the deposited data

How the results depend on the processing

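Between compartments, 132 alternative counts of receptors past the threshold were computed (DESeq2, RLE size factors, no low-count filter, no replicate block, each facility or library left out, thinned cells, cells with lymphocyte markers or Macrophage_3 left out), and 131 stayed at 0. In 3 of these no receptor could be tested (cDC1 and ILC2 thinned, ILC2 without Hamburg) and in 22 only 1 to 3. Without the low-count filter cDC1 gave 1, Csf1r at 2.41 ± 0.62 (adjusted p = 0.0463, edgeR). Csf1r in resident macrophages, medulla against cortex, ranged from 0.27 to 0.58 log2 units over 19 alternatives, and was 0.41 ± 0.32 with no replicate block. The numbers of the labels do not pair libraries, and the block rests on facility. Directions that reversed were Csf2rb in resident macrophages (0.04 without Bonn, 0.04 without the Bonn cortex library, and -0.43 at the other end, without the Hamburg cortex library), Csf3r in resident macrophages (-0.06 without lymphocyte marker cells), Csf3r in Monocyte (0.01 with RLE, 0.02 without Aachen) and Flt3 in cDC1 (-0.01 without Aachen, -0.13 without Bonn, 0.68 without Hamburg). The cause was not tested. Maf kept its direction in all 19 alternatives (0.58 or more) and lost its call in 10, and Socs3 in Macrophage_1 lost it in 3 of 8.

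The share of all genes called is less stable than these counts of receptors. In resident macrophages, medulla against cortex, 56 genes rose and 52 fell, against 25 and 18 by DESeq2, 0 and 0 by edgeR with no replicate block (109 at an unadjusted p under 0.05), 150 and 232 without the low-count filter, 15 and 11 after thinning and 3 and 3 without Macrophage_3. Without Aachen 99 rose and 138 fell, without Bonn 17 and 37 and without Hamburg 2 and 4, and single libraries left out gave from 5 and 9 (Bonn cortex) to 121 and 141 (Aachen IM).

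As a mean over single cells Csf3r in Neutrophils was 1462 CPM rather than 1029. Thinning moved shares of cells with a UMI (means over facilities) to 34.2% for Csf1r and 16.8% for Csf2ra in resident macrophages, 43.6% for Csf3r in Neutrophils, 9.39% and 7.14% for Flt3 in cDC1 and cDC2 and 2.06% for Kit in ILC2, since such shares scale with depth. Macrophage_3 could not be fitted, and Kit in ILC2 gave no value without Hamburg or after thinning.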
